A study of Mus musculus with 18 samples.

Results

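Big outgrowth cells are the large cells that were sorted from lymphoma cultures 14 days after a 5-day drug treatment had ended. Their 3 arrays were compared with the 3 arrays of untreated cells of the same lymphomas, numbered 4146, 4936 and 5043, by subtracting the untreated value from the big outgrowth value within each lymphoma. These are 6 of the 17 arrays with values. The comparison was described across 18194 genes, with 1 probe set standing for each gene (the one of highest mean signal over all 17 arrays), and 11897 of these genes were tested.

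The cells of every group were primary B-cell lymphomas explanted from lymph nodes of Eµ-myc transgenic, Suv39h1-null mice on a C57/Bl6 background. In the Eµ-myc transgene the immunoglobulin heavy chain enhancer drives the oncogene Myc in B-lineage cells. All groups, the untreated one included, carried retroviral Bcl2, an inhibitor of apoptosis, and retroviral Suv39h1-ERT2, in which the enzyme is joined to a receptor domain and becomes active once 4-hydroxytamoxifen (4-OHT) binds. The untreated group (n = 3) received neither Adriamycin (ADR, doxorubicin) nor 4-OHT. The big outgrowth group (n = 3) received ADR and 4-OHT together for 5 days, was kept for 14 days in medium without either, and was then sorted by flow cytometry for morphologically big cells. Used beside them were the small outgrowth cells sorted from the same cultures (n = 3) and cells at the end of 5 days of ADR with 4-OHT (n = 3). Also used were cells at the end of 5 days of ADR without 4-OHT (n = 3), named ADR 5 d. ADR outgrowth cells had received ADR without 4-OHT and the same 14 drug-free days (n = 2). Each lymphoma gave 1 array per group, so the lymphomas are the replicates. The spread behind each SE was estimated from all 17 arrays of the 6 groups with a term for lymphoma, and not from the 6 compared arrays alone. The labels do not describe the untreated cells as sorted, and no group with 4-OHT alone was analysed here, so drug treatment, Suv39h1 activation, time in culture and the sort cannot be told apart in big outgrowth minus untreated.

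ADR damages DNA by trapping topoisomerase on it, and cells that Bcl2 keeps from dying can respond with senescence, a lasting arrest in which cells often enlarge, change their secretions and gain lysosomal activity. Suv39h1 is a histone methyltransferase that places the repressive mark of heterochromatin on histone H3, and it has been studied in this lymphoma model for its part in drug-induced senescence. Outgrowth cultures are used to see which cells remain or divide again once the drugs are gone. The comparison with untreated cells asks how far the large cells of such a culture differ from the lymphoma before treatment.

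The values were deposited on the log2 scale, on which a difference of 1 is 2-fold, and arrays give no depth, so the number of arrays limits the precision. Values under 4.86, the median of all deposited values, may lie at background, so for big outgrowth minus untreated a fitted rise from such a value is also given with values floored at 4.86, written as at least. Lymphoma offsets had been taken out before deposit, so levels are not the original ones and this floor is approximate. Whether groups overlap across lymphomas also rests on these levels. The array of big outgrowth 5043 stood apart. On the first principal component it scored 66.32, near ADR 5 d of 4936 (66.81) and small outgrowth of 5043 (58.47). The highest of the other 14 arrays were also big outgrowth, 4936 at 5.94 and 4146 at 1.55, and the rest lay between -25.99 and -8.46. Xist, the noncoding RNA that silences an X chromosome, was at 12.26 in big outgrowth of 5043, against 7.85 and 8.99 in big outgrowth of 4146 and 4936 and 6.73, 6.20 and 6.27 in untreated 4146, 4936 and 5043. The count of genes called in each comparison is therefore also given without big outgrowth 5043. Whether this array, the other 2 that stood apart and the array of ADR with 4-OHT 5 d of 4146, where Xist was low, hold the cells their labels name cannot be settled here. They are used by their labels, and every difference given for 5043 is that of the array labelled big outgrowth 5043. Among the controls for RNA quality, those of Tfrc and Actb were higher in big outgrowth than in untreated cells of each lymphoma. The difference between 3′ and 5′ probe sets of Tfrc was 2.46, 3.36 and 2.86 in big outgrowth of 4146, 4936 and 5043 and 1.56, 2.16 and 2.19 in untreated cells. For Gapdh it was 0.453, 0.459 and 0.796 against 0.515, 0.479 and 0.54, lower in 4146 and 4936 and higher in 5043. For Actb it was 1.496, 1.757 and 1.596 against 1.392, 1.654 and 1.411, higher in each lymphoma, though the ranges of the groups overlapped. The part of RNA quality in the results was not tested. The B cell gene Cd79b, which encodes a chain of the antigen receptor complex, was at 10.95, 10.81 and 10.54 in untreated 4146, 4936 and 5043 and at 10.76, 10.59 and 11.06 in the big cells. Suv39h1 and Trp53 were on the list of genes to be given as values, but values of neither are reported here.

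The lectin gene Lgals3 had the largest rise in big outgrowth, followed by the matrix genes Bgn and Fn1, and the zinc finger gene Zfp62 had the largest fall. Of 11897 genes, 49 (0.412%) passed an adjusted p of 0.05 in limma, 34 (0.286%) higher and 15 (0.126%) lower in big outgrowth than in untreated cells. The rises were also the larger changes: 33 of the 34 were at least 2-fold and 19 at least 8-fold, while 9 of the 15 falls reached 2-fold. All 49 had the same sign in the 3 lymphomas, as had 41% of tested genes. In all 34 rising genes the 3 big outgrowth values lay above the 3 untreated values, which held for 13.1% of tested genes, and in all 15 falling genes they lay below, which held for 16.7%. The 49 were selected by a fit to these same values, so the shared sign and the separation are largely built in. The lowest adjusted p was 0.0134, and 1938 genes (16.3%) had an unadjusted p under 0.05, 761 higher and 1177 lower.

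**Figure D1:**
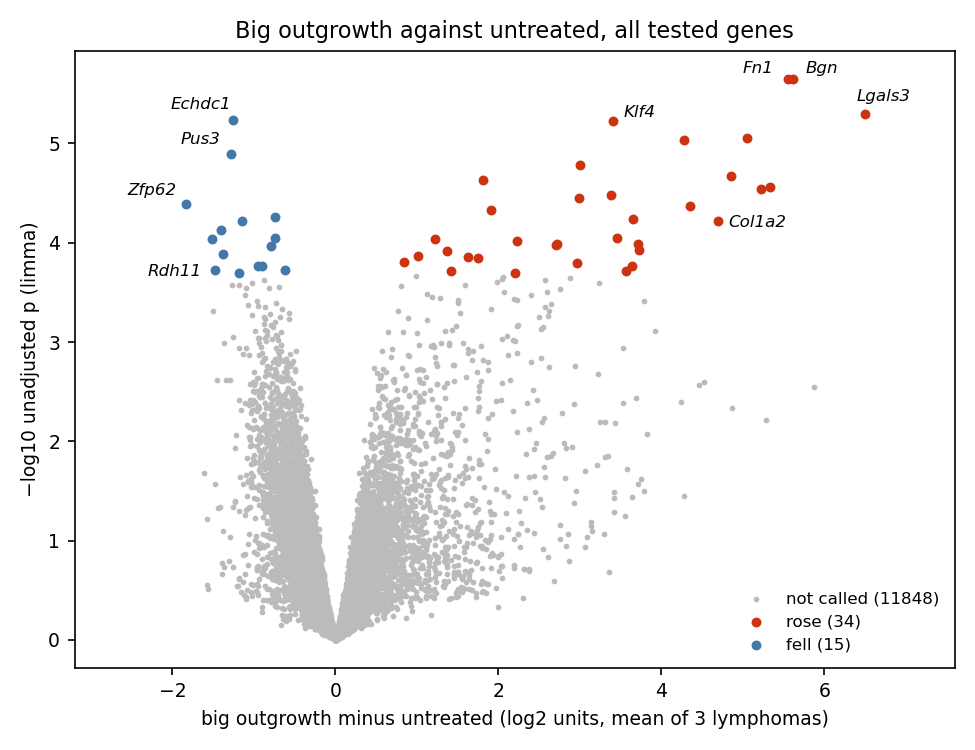
Mean difference of big outgrowth minus untreated in log2 units over 3 lymphomas (horizontal) against −log10 of the unadjusted limma p (vertical) for 11897 genes. The 34 genes that rose (red) reach further from 0 than the 15 that fell (blue), up to 6.49 for Lgals3 against -1.84 for Zfp62, and grey genes were not called.

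How many genes passed depended on single arrays. Without big outgrowth 5043, 57 genes passed (0.479%), 55 higher (0.462%) and 2 lower (0.0168%), and 29 were shared with the 49, namely 27 rising and 2 falling ones. Without the 3 arrays that stood apart, 80 passed (0.672%), 77 higher (0.647%) and 3 lower (0.0252%), and 33 were shared. No gene passed without untreated 4146 or without untreated 4936, 20 passed without untreated 5043, 13 without big outgrowth 4146 and 12 without big outgrowth 4936. Leaving out a whole lymphoma gave 0 for 4146, 108 for 4936 and 1 for 5043. A fit without the block for lymphoma called 112 genes, 63 higher and 49 lower, 47 of the 49 among them.

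Lgals3, the gene of galectin-3, a lectin that binds galactosides at the cell surface and in the matrix, had the largest rise. It was at 3.05, 3.44 and 5.63 in untreated 4146, 4936 and 5043 and at 9.72, 12.41 and 9.48 in the big cells. The groups did not overlap, and the lowest big value was that of 5043, where the untreated value was highest. The mean difference was 6.49 log2 units (SE 0.81, adjusted p = 0.0141), at least 5.42 above the threshold, and 7.18 without big outgrowth 5043.

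Bgn and Fn1 had the lowest adjusted p. Bgn encodes biglycan, a proteoglycan of connective tissue matrix, and was at 5.07, 4.79 and 6.78 in untreated 4146, 4936 and 5043 and at 10.81, 12.01 and 10.65 in big outgrowth. Fn1 encodes fibronectin, to which integrins bind, and was at 5.36, 5.17 and 5.77 in untreated cells and at 10.76, 11.84 and 10.37 in big outgrowth. In both genes every big value was above 10 and every untreated value under 7. The differences were 5.61 (SE 0.65, at least 5.59) for Bgn and 5.55 (SE 0.64) for Fn1, each with adjusted p = 0.0134. Fn1 lies at chr1:71585473-71653280 in GRCm38.p6, and its 3 untreated values were above the threshold, so its rise is not a bound.

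Efemp1, which encodes a fibulin of elastic fibres, was at 2.10, 3.22 and 4.16 in untreated 4146, 4936 and 5043 and at 8.12, 10.51 and 6.84 in big outgrowth. All 3 untreated values were under 4.86, and the difference of 5.34 (SE 0.80, adjusted p = 0.0264) is at least 3.64. Col1a2, a chain of type I collagen, was at 4.89, 4.75 and 6.25 in untreated cells and at 10.03, 11.03 and 8.92 in big outgrowth, a difference of 4.70 (SE 0.76, adjusted p = 0.0324), at least 4.66. Nid1, the basement membrane protein nidogen, was at 2.89, 4.35 and 5.20 and rose to 7.31, 10.42 and 7.77. Dcn, the collagen-binding proteoglycan decorin, was at 3.80, 4.78 and 5.66 and rose to 7.86, 9.90 and 7.66. In these 4 genes the largest value was that of big outgrowth 4936 and the groups did not overlap. Smaller rises among matrix genes were those of Timp2, an inhibitor of matrix metalloproteinases (3.66, SE 0.59, at least 3.50), Pcolce, which helps to cleave procollagen (3.64, SE 0.67, at least 2.58), Ecm1 (2.70, SE 0.47, at least 2.54), the cell surface proteoglycan gene Gpc1 (2.22, SE 0.38, at least 1.75) and the gelatinase gene Mmp2 (1.91, SE 0.30). Grouped after their values were seen, 11 of the 34 rising genes encode matrix proteins or proteins that modify them. The group was not counted over all tested genes, so the number describes these genes and says nothing of matrix genes in general.

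Other large rises were in genes of membranes and of secretion. Anxa2, an annexin that binds membrane phospholipids in the presence of calcium, was at 3.64, 3.80 and 4.93 in untreated 4146, 4936 and 5043 and at 8.32, 11.03 and 7.59 in big outgrowth. Its difference was 4.86 (SE 0.71, adjusted p = 0.0253), at least 4.10. Anxa3, of the same family, was at 3.21, 4.06 and 3.68 and rose to 6.22, 8.76 and 7.13 (3.72, SE 0.64, at least 2.51), and Emp1, a small membrane protein, was at 3.43, 3.42 and 4.15 and rose to 7.70, 9.51 and 6.63 (4.28, SE 0.57, at least 3.09). Cpe, a carboxypeptidase that trims prohormones in secretory granules, was at 2.54, 2.68 and 4.80 and rose to 8.01, 10.04 and 7.65 (5.23, SE 0.79, at least 3.71). For none of these genes did the groups overlap. Rpl39l, a ribosomal protein gene closely related to Rpl39, was at 4.27, 4.41 and 5.53 and rose to 9.13, 11.56 and 8.66 (5.05, SE 0.67, at least 4.71), and signal from the related gene cannot be told apart. The rise of Cav1, the coat protein of caveolae, was 3.46 (SE 0.59, at least 3.07), that of Cryab, a small heat shock protein, 3.56 (SE 0.66, at least 1.91), and that of the water channel gene Aqp1 2.99 (SE 0.46, at least 1.64).

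**Figure D2:**
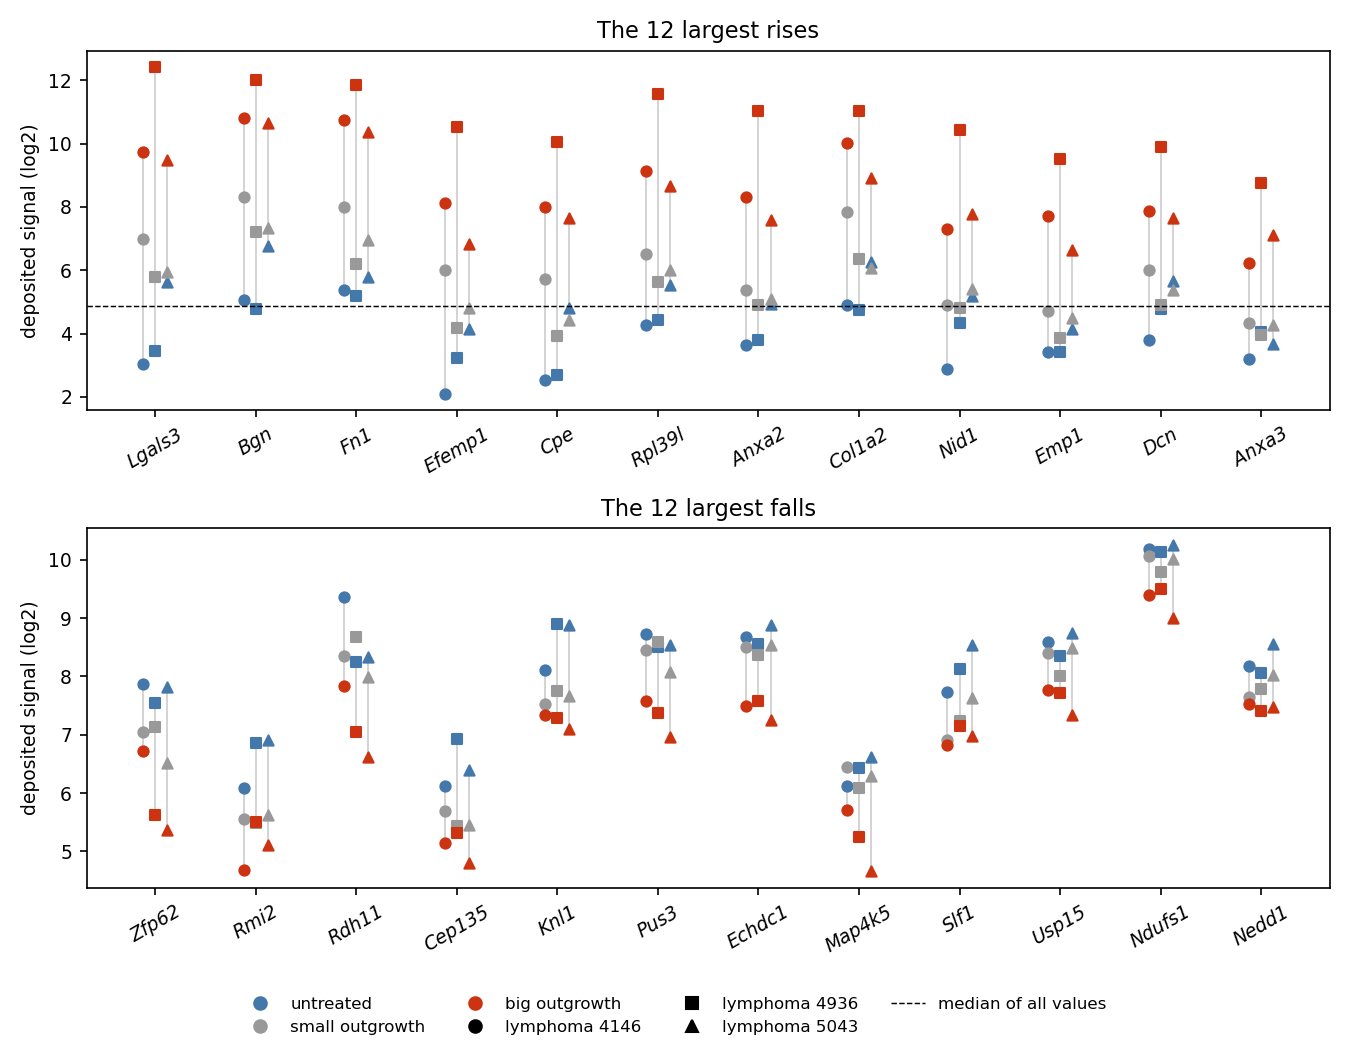
Deposited log2 signal of the 12 genes with the largest rises (top) and the 12 with the largest falls (bottom) in untreated (blue), small outgrowth (grey) and big outgrowth (red) cells, 1 point per array with the shape giving the lymphoma, vertical lines joining the arrays of a lymphoma and the dashed line in the upper panel at 4.86. Big outgrowth lies above untreated in every lymphoma for the rising genes, most of all in 4936, and below it for the falling genes.

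Klf4 is a zinc finger transcription factor that can restrain the cell cycle in some tissues and helps to reprogram cells to pluripotency. Of 25 named stem and progenitor genes 13 were tested and 1, Klf4, rose, a share to be read against 0.286% of all tested genes. Klf4 was at 3.45, 3.47 and 3.48 in untreated 4146, 4936 and 5043 and at 7.06, 8.0 and 5.54 in big outgrowth. The untreated values were all under 4.86, and the big ones were all above it. The difference was 3.40 (SE 0.43, adjusted p = 0.0141), at least 2.01, and without big outgrowth 5043 it was 3.94. Cd34, a surface protein of blood stem cells, endothelium and fibroblast precursors, was at 3.11, 3.03 and 3.05 in untreated cells and at 5.52, 7.36 and 3.88 in big outgrowth. It missed the threshold (2.52, SE 0.55, at least 1.05, adjusted p = 0.0787) and passed it without big outgrowth 5043 (3.25, adjusted p = 0.016).

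The remaining rises were smaller or came from lower levels. Slpi, a secreted inhibitor of leukocyte proteases, was at 6.84, 6.83 and 7.40 in untreated 4146, 4936 and 5043 and at 10.09, 8.91 and 8.68 in big outgrowth. It rose most in 4146, unlike 30 of the 34 rising genes, which rose most in 4936. Over all tested genes that were higher in all 3 lymphomas, 25.6% rose most in 4936. The rise was smallest in 5043 for 28 of the 34, against 23.7% of those genes. Slc6a8, the creatine transporter, rose by 1.63 (SE 0.29), Vasn, a membrane protein that binds transforming growth factor beta, by 1.37 (SE 0.24), and Gng8, a G protein subunit, by 0.84 (SE 0.15). The smallest of these came from genes above the threshold in untreated cells, where 8 of the 34 had all 3 values. Another 10 had 1 or 2 untreated values under it and 16 had all 3 under it, and with values floored at 4.86, 32 of the 34 still rose by at least 1 log2 unit and 13 by at least 3. Each of the 34 reached 4.86 on at least 1 of the 14 arrays that were not big outgrowth.

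The promoters of members at either end of the comparison are printed below to show the sequence at the start of the genes the results turn on: Lgals3, with the largest rise, Bgn, with the lowest adjusted p, the transcription factor gene Klf4, and Pus3, a falling gene. Each is a window of 300 bases, mostly upstream of the annotated start, from RefSeq on GRCm38.p6, and capitals mark matches on either strand to the motifs whose letters are given in the next paragraph. Lgals3 is at chr14:47373610-47373909 on the plus strand, Bgn at chrX:73483351-73483650 on the plus strand, Klf4 at chr4:55532426-55532725 on the minus strand and Pus3 at chr9:35558310-35558609 on the plus strand.
Lgals3: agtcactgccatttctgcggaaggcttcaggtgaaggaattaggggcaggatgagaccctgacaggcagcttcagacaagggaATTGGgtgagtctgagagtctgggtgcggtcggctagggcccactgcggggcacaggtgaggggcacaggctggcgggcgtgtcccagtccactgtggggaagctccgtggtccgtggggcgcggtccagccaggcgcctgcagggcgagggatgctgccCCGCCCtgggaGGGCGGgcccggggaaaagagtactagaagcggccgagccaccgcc
Bgn: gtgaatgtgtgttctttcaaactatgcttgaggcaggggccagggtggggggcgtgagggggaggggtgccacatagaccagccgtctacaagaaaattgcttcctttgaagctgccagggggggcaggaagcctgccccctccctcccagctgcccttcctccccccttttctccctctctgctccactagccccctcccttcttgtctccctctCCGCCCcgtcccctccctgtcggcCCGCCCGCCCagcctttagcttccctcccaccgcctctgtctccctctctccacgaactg
Klf4: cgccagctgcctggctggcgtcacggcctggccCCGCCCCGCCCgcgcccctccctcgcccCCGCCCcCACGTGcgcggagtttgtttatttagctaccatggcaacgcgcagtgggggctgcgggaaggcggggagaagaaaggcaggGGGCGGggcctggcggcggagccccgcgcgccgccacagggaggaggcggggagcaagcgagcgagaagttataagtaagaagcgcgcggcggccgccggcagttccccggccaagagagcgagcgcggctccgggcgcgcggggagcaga
Pus3: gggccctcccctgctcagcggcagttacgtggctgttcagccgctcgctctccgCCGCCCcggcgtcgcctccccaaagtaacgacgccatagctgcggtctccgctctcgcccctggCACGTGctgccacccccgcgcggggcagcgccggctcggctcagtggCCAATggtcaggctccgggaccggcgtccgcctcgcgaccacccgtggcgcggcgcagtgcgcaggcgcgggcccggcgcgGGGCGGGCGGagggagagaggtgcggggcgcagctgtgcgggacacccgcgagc
GC boxes stand in all 4, overlapping each other in Bgn, Klf4 and Pus3, while an E-box stands in Klf4 and Pus3 and a CCAAT box in Lgals3 and Pus3.

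Of the called genes, 23 rising and 11 falling ones had a promoter in the table, as had 9647 tested genes. The letters of AP-1, TGANTCA, stood in 4 of the 23 rising promoters (17.4%), in 0 of the 11 falling ones and in 6.13% of the tested genes' promoters. The other motifs are given for rising, falling and tested genes in that order. The GC box, with the letters GGGCGG, stood in 73.9%, 72.7% and 67.4% of promoters. The E-box, with the letters CACGTG, stood in 8.7%, 18.2% and 11.7%. The box CCAAT stood in 30.4%, 54.5% and 42.6%. The TATA box, searched as TATAAA, stood in 17.4%, 0% and 8.84%. The letters GGAATG, which TEAD factors can bind, stood in 8.7%, 18.2% and 14.1%. The motifs were chosen after a first look at the calls, a match is not a binding site, and these shares describe few promoters.

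The 15 falls were smaller than most rises. Zfp62, a zinc finger protein gene at chr11:49203261-49218816, had the largest fall. It was at 7.87, 7.55 and 7.82 in untreated 4146, 4936 and 5043 and at 6.72, 5.63 and 5.37 in big outgrowth. The groups did not overlap, and the difference was -1.84 (SE 0.29, adjusted p = 0.0297). Without big outgrowth 5043 it was -1.57 (adjusted p = 0.0612).

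Echdc1 and Pus3 were the 2 falling genes that also passed without big outgrowth 5043. Echdc1 encodes an enzyme that removes by-products of fatty acid synthesis, and was at 8.68, 8.55 and 8.87 in untreated 4146, 4936 and 5043 and at 7.50, 7.58 and 7.26 in big outgrowth (-1.26, SE 0.16, adjusted p = 0.0141). Pus3 encodes a pseudouridine synthase that modifies transfer RNA, and was at 8.73, 8.50 and 8.54 in untreated cells and at 7.59, 7.37 and 6.96 in big outgrowth (-1.28, SE 0.18, adjusted p = 0.019). In both genes the untreated values lay close together and the groups did not overlap. Ndufs1, a core subunit of complex I of the respiratory chain, was at 10.19, 10.14 and 10.26 and fell to 9.39, 9.50 and 9.01 (-0.90, SE 0.16, adjusted p = 0.0478). Rdh11, a retinol dehydrogenase, was at 9.36, 8.25 and 8.33 and fell to 7.84, 7.04 and 6.61 (-1.48, SE 0.28, adjusted p = 0.0487).

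Several falling genes serve chromosomes and their segregation. Rmi2, a partner of the Bloom helicase that resolves recombination intermediates, was at 6.08, 6.85 and 6.91 in untreated 4146, 4936 and 5043 and at 4.68, 5.50 and 5.11 in big outgrowth (-1.52, SE 0.26, adjusted p = 0.0401). Knl1, the kinetochore scaffold that recruits the spindle checkpoint, was at 8.11, 8.89 and 8.87 and fell to 7.34, 7.29 and 7.09 (-1.38, SE 0.25, adjusted p = 0.0442). Cep135, a centriole protein, was at 6.12, 6.93 and 6.40 and fell to 5.14, 5.31 and 4.80 (-1.40, SE 0.23, adjusted p = 0.0383). Big and untreated values did not overlap in any of these 3 genes. Slf1, which brings the repair complex of Smc5 and Smc6 to DNA damage, fell by 1.15 (SE 0.19), Nedd1, which brings gamma-tubulin to the centrosome, by 0.79 (SE 0.14), and Terf2ip, a telomere protein, by 0.74 (SE 0.12). These 6 of the 15 falling genes were grouped after their values were seen and were not counted over all tested genes, and in the list of mitosis and kinetochore genes 0 of 39 were called, with a median of -0.05. The others were Map4k5, a kinase (-1.19), Usp15, a deubiquitinase (-0.95), Pik3c3, the lipid kinase of autophagy (-0.74), and Tmem101 (-0.62). The fall was largest in 5043 for 12 of the 15, against 51.9% of all genes that were lower in all 3 lymphomas.

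A gene often has several probe sets, and the others mostly had the same sign. Of the 49 called genes, 28 had more than 1 probe set, with 47 others, of which 40 had the sign of the one tested. Among the 30 that reached 4.86 on at least 3 arrays, 27 had that sign. The exceptions lay in Emp1, whose 1 other probe set was at -0.04, and in Usp15, where 1 of 3 had the sign. The same sign can also go with little change. The 2 others of Anxa2 were at 0.08 and 0.44, far under the rise of the one tested, and those of Terf2ip at -0.34 and -0.01.

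Several of the largest rises belong to fibroblasts and other stromal cells, which make most matrix, and that list stood furthest from 0 of the 29 described. Of its 21 named genes 14 were tested and 5 rose, namely Bgn, Fn1, Col1a2, Dcn and Pdgfra, a share to be read against 0.286% of all tested genes. Pdgfra, a growth factor receptor of fibroblasts, was at 4.79, 4.88 and 4.86 in untreated 4146, 4936 and 5043 and at 5.95, 6.72 and 5.53 in big outgrowth (1.22, SE 0.21, at least 1.20, adjusted p = 0.0401). Sparc, a matrix protein, was at 6.68, 4.86 and 6.12 and at 8.42, 11.87 and 9.14 (3.92, SE 0.87, adjusted p = 0.0787), and Vim, the intermediate filament of mesenchymal and many blood cells, at 11.57, 10.55 and 11.41 and at 13.40, 13.37 and 11.51 (1.58, SE 0.61, adjusted p = 0.241), so neither passed. Over all 21 named genes the median difference was 1.22, namely 0.83 in 4146, 1.84 in 4936 and 0.77 in 5043, against -0.0358 for all tested genes. The 14 tested ones had a median of 2.21, and the filter on low values keeps genes that are high in big outgrowth. Without big outgrowth 5043, 6 rose, Col5a2 being added.

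The summed level of the 21 genes, taken on the linear scale and given as log2, was between 10.99 and 11.95 in untreated cells and between 12.99 and 15.04 in big outgrowth. It was between 10.86 and 12.31 in small outgrowth, between 11.48 and 11.82 in ADR outgrowth and between 12.24 and 13.64 after 5 days of ADR. After 5 days of ADR with 4-OHT it was between 11.34 and 12.97. In each lymphoma the big cells were the highest, but in 5043 only by 12.99 against 12.97 after ADR with 4-OHT. Their lowest array lay under the highest after ADR. Such a sum is led by the genes of highest level, in untreated cells by Vim. Not every stromal marker was present. Postn, Loxl1 and Pdgfrb were under 4.86 on all 6 arrays, and Col1a1 was at 5.18, 4.58 and 4.48 in big outgrowth of 4146, 4936 and 5043 while Col1a2, its partner chain, was between 8.92 and 11.03. In RNA from a whole sorted population, more cells of another type and more RNA per cell cannot be told apart.

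**Figure D3:**
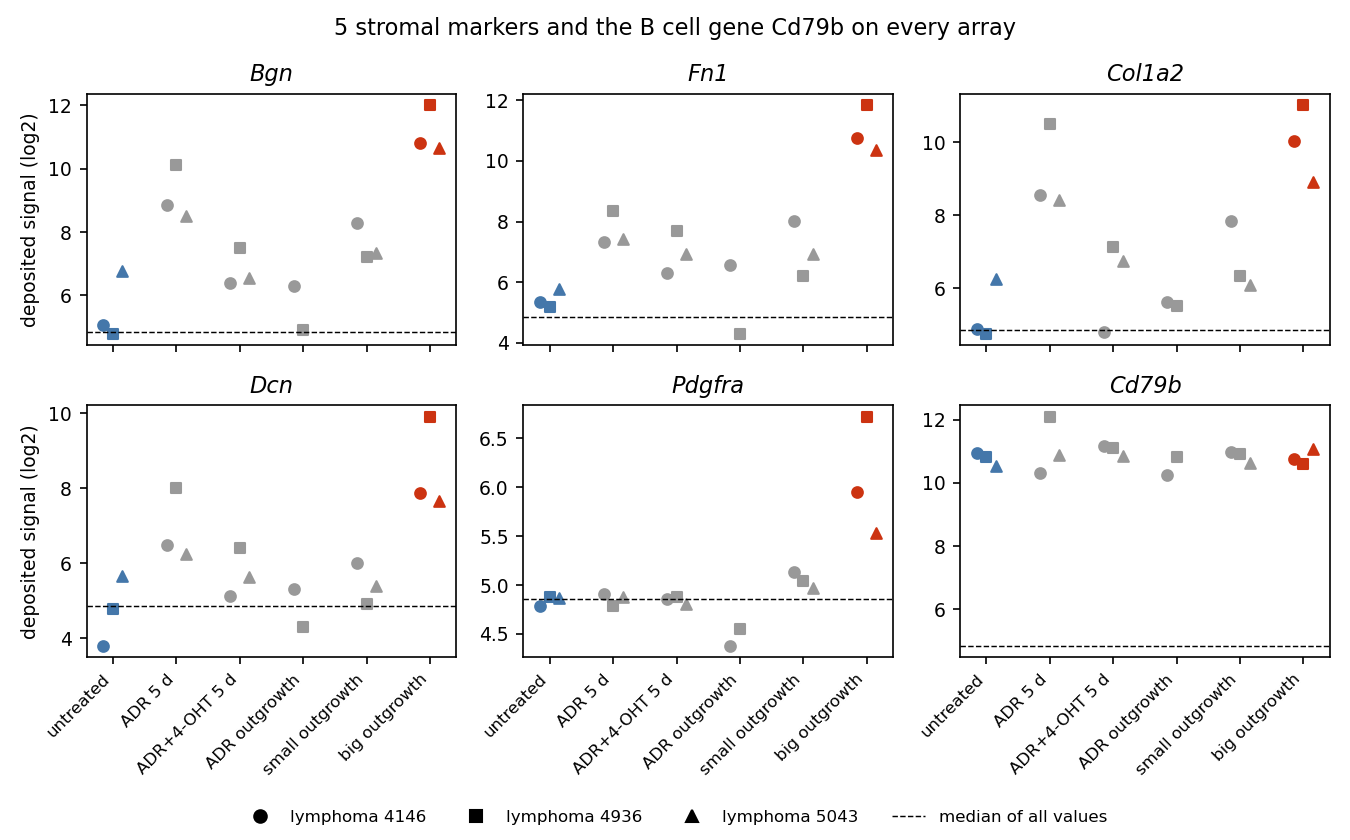
Deposited log2 signal of 5 called stromal markers and of the B cell gene Cd79b on each of the 17 arrays, by group, with the shape giving the lymphoma and the dashed line at 4.86. The stromal markers are highest in big outgrowth (red) in each lymphoma, while Cd79b lies between 10.25 and 12.09 on all arrays.

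Markers of B cells did not pass in either direction. Of 23 tested of 26 named, 0 were called by limma and 1 had an unadjusted p under 0.05, and the median over the 26 was -0.07. Their summed level was between 14.23 and 14.76 in untreated and between 14.04 and 14.33 in big outgrowth, so the groups overlapped. Cd79a, the partner of Cd79b, was at 7.61, 8.04 and 7.39 in untreated 4146, 4936 and 5043 and at 6.86, 6.71 and 7.68 in big outgrowth (-0.59, SE 0.33, adjusted p = 0.383).

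Macrophage markers had higher values without passing. The summed level of 18 named genes was between 8.99 and 9.27 in untreated cells and between 10.25 and 11.21 in big outgrowth. It was between 9.09 and 9.76 in small outgrowth, between 10.76 and 11.14 in ADR outgrowth and between 11.41 and 14.5 after ADR with 4-OHT, so the big cells were not the highest. Of the 11 tested, 0 were called, with 4 at an unadjusted p under 0.05. Lyz1, a lysozyme gene of macrophages, was at 4.18, 4.83 and 3.67 in untreated 4146, 4936 and 5043 and at 9.33, 8.36 and 8.58 in big outgrowth (4.53, SE 1.18, at least 3.90, adjusted p = 0.117), without overlap. Of the 11, 8 were higher in all 3 lymphomas, as were 17.9% of all tested genes. Cd68, a lysosomal protein of macrophages, was at 7.40, 7.04 and 7.54 in untreated 4146, 4936 and 5043 and at 9.22, 8.10 and 8.69 in big outgrowth (1.34, SE 0.61, adjusted p = 0.302). Differences were 2.48 for the scavenger receptor gene Cd36 (at least 2.29), 1.78 for Cd14 (at least 0.78), 1.23 for the growth factor receptor gene Csf1r (at least 1.06) and 1.37 for Adgre1 (at least 0.78), and none of these passed. The markers C1qa, C1qb, C1qc, Mrc1, Cd163 and Marco were under 4.86 on all 6 arrays. The part of these markers in the results was not tested. Endothelial markers summed to between 8.08 and 8.20 in untreated and between 8.20 and 8.40 in big outgrowth, and T and NK cell markers to between 9.45 and 9.87 and between 9.76 and 10.17, with 0 called in either list and 0 and 1 members at an unadjusted p under 0.05.

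**Figure D4:**
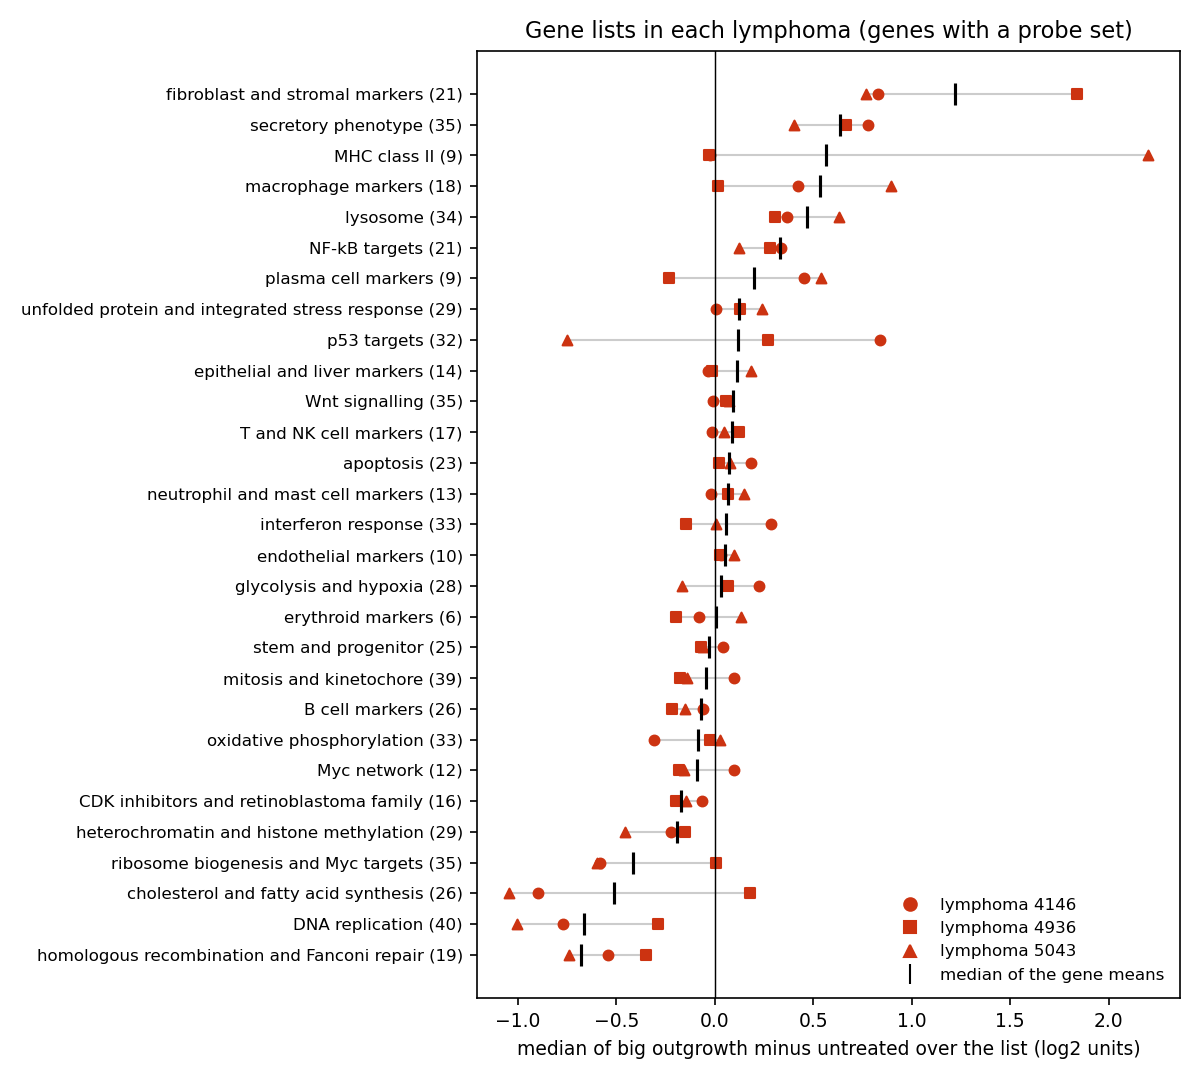
Median difference of big outgrowth minus untreated in log2 units over the named genes of each of 29 lists, in lymphoma 4146 (circle), 4936 (square) and 5043 (triangle), with a bar for the median of the gene means and the number of genes in brackets. Stromal markers have the highest bar (1.22) and homologous recombination the lowest (-0.68), and the 3 lymphomas disagree most for MHC class II, p53 targets and lipid synthesis.

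Genes of DNA replication were lower in big outgrowth than in untreated cells without any passing the threshold. Of 40 tested, 0 were called by limma, 23 had an unadjusted p under 0.05, each of them lower, and 33 had every big value below every untreated one, against 16.7% of tested genes. The median was -0.66, namely -0.77 in 4146, -0.29 in 4936 and -1.01 in 5043. Pcna, the sliding clamp of the polymerases, was at 12.36, 12.49 and 12.86 in untreated 4146, 4936 and 5043 and at 11.24, 11.86 and 11.45 in big outgrowth (-1.06, SE 0.25, adjusted p = 0.0952). Pola1, the catalytic subunit of the priming polymerase, differed by -0.93 (SE 0.25, adjusted p = 0.13). Homologous recombination and Fanconi repair genes showed 0 of 19 called, 9 lower at an unadjusted p under 0.05 and a median of -0.68. Brip1, a helicase of this pathway, differed by -0.98 (SE 0.26) and Fanci by -0.88 (SE 0.30), with adjusted p of 0.117 and 0.188. The medians without big outgrowth 5043 were -0.58 for replication and -0.62 for recombination. From small outgrowth, big outgrowth differed by a median of -0.05 for replication and 0.02 for recombination. These medians therefore do not set the big cells apart from the small cells of the same cultures. The medians were -0.72 and -0.55 against ADR outgrowth, and 0.23 and 0.43 against the same treatment before the drug-free days.

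Genes of mitosis were near their untreated level on balance, with 0 of 39 called, 2 lower at an unadjusted p under 0.05 and a median of -0.05. Among cell cycle inhibitors, Cdkn2a, which encodes p16 and p19 Arf and marks senescence in many cells, was at 5.40, 4.35 and 6.08 in untreated 4146, 4936 and 5043 and at 6.68, 8.61 and 9.12 in big outgrowth. The groups did not overlap, but the difference of 2.86, at least 2.70, had an SE of 1.91 and did not pass (adjusted p = 0.473). That SE draws on all groups, and Cdkn2a was at 13.87 in ADR 5 d of 4936, one of the arrays that stood apart. Without the 3 such arrays, which include big outgrowth 5043, the difference was 2.04 and did not pass in limma either (adjusted p = 0.584). Cdkn1a, the p53 target that encodes p21, was at 11.56, 12.25 and 12.56 in untreated cells and at 13.33, 12.58 and 11.34 in big outgrowth, higher in 4146 and lower in 5043 (0.29, SE 0.77, adjusted p = 0.874). Myc was at 11.78, 11.83 and 11.72 and at 12.003, 11.61 and 11.37 (-0.11, SE 0.29, adjusted p = 0.876). Bcl2 was also transduced, and endogenous and transduced copies cannot be told apart here. It was at 8.73, 9.52 and 8.70 and at 8.47, 9.24 and 6.95 (-0.76, SE 0.83, adjusted p = 0.665).

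Of the secretory genes tied to senescence, 26 of 35 named were tested and 1, Timp2, rose, with 11 at an unadjusted p under 0.05, each of them higher. The median over the 35 was 0.64, namely 0.78 in 4146, 0.67 in 4936 and 0.40 in 5043. Over the 26 tested, big outgrowth differed by a median of 0.98 from small outgrowth, 0.50 from ADR outgrowth and 0.007 from ADR with 4-OHT 5 d. Mmp13, a collagenase, was at 3.19, 6.65 and 5.84 in untreated 4146, 4936 and 5043 and at 10.38, 10.12 and 8.57 in big outgrowth, without overlap, and did not pass (4.46, SE 1.18, at least 3.91, adjusted p = 0.118). Lysosomal genes had a median of 0.47 over 34, higher in all 3 lymphomas for 20 against 17.9% of tested genes, and 0 were called, with 8 at an unadjusted p under 0.05. Their median difference was 0.205 from small outgrowth, 0.39 from ADR outgrowth and -0.18 from ADR with 4-OHT 5 d. Ctsd, a lysosomal protease, was at 8.58, 8.07 and 8.40 and at 10.29, 9.73 and 10.63 (1.87, SE 0.47, adjusted p = 0.107). In 4 lists of metabolism and growth 1 gene was called, Ndufs1. The median was 0.03 for 28 genes of glycolysis and hypoxia, -0.41 for 35 genes of ribosome biogenesis and Myc targets, -0.51 for 26 of cholesterol and fatty acid synthesis and -0.09 for 33 of oxidative phosphorylation. For lipid synthesis it was -0.90 in 4146 and -1.04 in 5043 but 0.18 in 4936, and 13 genes had an unadjusted p under 0.05.

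Among 28 tested heterochromatin and histone methylation genes 0 were called by limma, with 7 at an unadjusted p under 0.05. Suv39h2, the paralog of Suv39h1, was at 7.37, 7.52 and 7.57 in untreated 4146, 4936 and 5043 and at 6.63, 6.84 and 6.75 in big outgrowth. The groups did not overlap and the difference was -0.74 (SE 0.25, adjusted p = 0.188). Setdb2, another histone methyltransferase gene, differed by -0.43 (SE 0.15, adjusted p = 0.188).

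Big outgrowth cells were also set against the small outgrowth cells and the 2 groups that differ from them by the drug-free days or by 4-OHT. These comparisons share the big outgrowth arrays with the one above, so they are given side by side and not as independent results. Against small outgrowth cells of the same cultures 0 of 11897 genes were called by limma (0%), with 1243 (10.4%) at an unadjusted p under 0.05 and a lowest adjusted p of 0.0654. Other settings called up to 261, including 30 without the block for lymphoma, 26 without big outgrowth 5043 and 0 without small outgrowth 5043. For 33 of the 34 rising genes the big value was above the small one in every lymphoma, as it was for 17.8% of tested genes, and the 34 had been selected for high values on the same big outgrowth arrays. The difference over the 34 ran from -0.25 to 4.30 with a median of 2.70. Lgals3, for instance, was at 6.98, 5.79 and 5.94 in small outgrowth of 4146, 4936 and 5043, 4.30 under the big cells (SE 0.81, adjusted p = 0.0904) and 2.19 over untreated ones (adjusted p = 0.565). Fn1 was at 8.01, 6.21 and 6.94, a difference of 3.94 from the big cells (SE 0.64, adjusted p = 0.0654). Fam102b was the exception, at 1.01 over untreated (SE 0.18) and at -0.25 against small outgrowth (SE 0.18, adjusted p = 0.688).

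Against the same treatment before the drug-free days, 478 genes (4.02%) were called, 238 higher (2%) and 240 lower (2.02%), and 29 of the 34 rising genes were among the higher ones. Here too the 34 had been selected for high values on the same big outgrowth arrays. Lgals3 was at 4.89, 6.08 and 5.77 in ADR with 4-OHT 5 d of 4146, 4936 and 5043, 4.96 under big outgrowth (adjusted p = 0.022). Of 39 mitosis genes, 16 were higher in the big cells than at 5 days, with a median of 1.14. Xist was at 2.78 on the 5-day array of 4146, against 6.34 and 5.55 in 4936 and 5043, and without that array 477 genes were called. The count was 0 without lymphoma 4146, without 5043 or without big outgrowth 4936, 14 without lymphoma 4936, 63 and 64 without big outgrowth 4146 and 5043, and 746 without untreated 4936.

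Against ADR outgrowth, which had the drug-free days without 4-OHT, 112 genes (0.941%) were called, 50 higher (0.42%) and 62 lower (0.521%), and 30 of the 34 rising genes were among the higher ones. That count has the same limit, since the 34 had been selected on these big outgrowth arrays. Fn1 was at 6.58 and 4.30 in ADR outgrowth of 4146 and 4936, 5.62 under big outgrowth (adjusted p = 0.0248), and Klf4 was at 3.35 and 3.36, 3.75 under it (adjusted p = 0.0248). The count was 0 without lymphoma 4146, without 4936 or without either of their big outgrowth arrays, 1 without 5043, 66 without big outgrowth 5043, 15 without small outgrowth 5043, 37 and 198 without untreated 4146 and 4936, and 57 without untreated 5043. After 5 days of ADR alone, Lgals3 was at 7.62, 8.86 and 7.95 in 4146, 4936 and 5043, 4.10 over untreated cells (adjusted p = 0.239), and Col1a2 was at 8.56, 10.51 and 8.41, 3.86 over them (adjusted p = 0.239), where the array of 4936 is one of those that stood apart.

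The array labelled big outgrowth 5043 differed from the other big outgrowth arrays in genes outside the 49, and the other 2 arrays that stood apart, small outgrowth of 5043 and ADR 5 d of 4936, had high values of the genes that were high on it. Cltrn, the collectrin gene of kidney and pancreas, was at 2.71 in untreated and 10.13 in big outgrowth of 5043, while in 4146 and 4936 it stayed between 2.49 and 2.84 in both groups. It was at 10.34 in small outgrowth of 5043 and at 10.86 in ADR 5 d of 4936. Afp, the fetal liver protein alpha-fetoprotein, was at 12.11 in big outgrowth of 5043, against 6.73 and 5.32 in 4146 and 4936 and 5.13, 4.47 and 4.47 in untreated 4146, 4936 and 5043. Ldhb, a lactate dehydrogenase subunit, was at 13.61 in big outgrowth of 5043, against 6.80 and 7.69 in the other big arrays. It was at 13.48 in small outgrowth of 5043 and at 10.60 in ADR 5 d of 4936. S100g, Tmed6 and Defb42 were at 9.44, 9.47 and 9.54 in big outgrowth of 5043, at 8.0, 9.15 and 8.71 in small outgrowth of 5043 and at 7.49, 12.90 and 7.52 in ADR 5 d of 4936, and between 2.85 and 3.43 in the other big arrays. In the opposite direction, Ifitm3, an interferon-induced membrane protein, was higher in big outgrowth by 4.62 and 3.74 in 4146 and 4936 and differed by -1.0 in 5043. Plk2, a p53 target, differed by 2.50 and 1.92 in 4146 and 4936 and by -2.63 in 5043. These genes were picked for their difference between the pairs, which is described here without a test, and Xist and Afp were at 12.07 and 11.74 in small outgrowth of 5043 and at 11.97 and 14.72 in ADR 5 d of 4936.

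**Figure D5:**
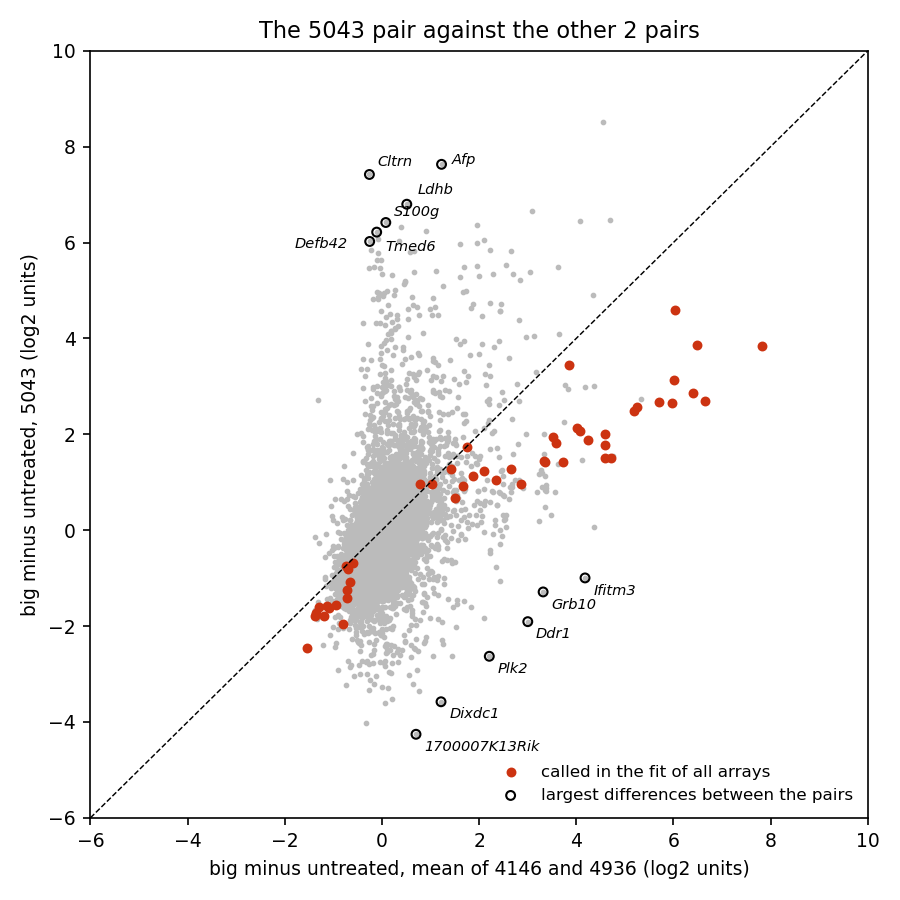
Difference of big outgrowth minus untreated in lymphoma 5043 (vertical) against the mean of 4146 and 4936 (horizontal), in log2 units, for all tested genes, with called genes in red, ringed genes chosen for the largest gap between the pairs and the dashed line where both are equal. The called rises lie under the line for most genes, and a column of genes near 0 in the other lymphomas, such as Cltrn, reaches 7.42 in 5043.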

How the data were processed

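Total RNA was labelled with biotin and hybridised to mouse Affymetrix arrays with 45101 probe sets. The deposited values are log2 signals, for which the submitters' processing notes name RMA and Partek without versions. Within each of the 3 lymphomas a probe set had an identical median (tolerance 1e-06), which means that the files came with lymphoma offsets already taken out, by a step the labels do not state; levels across lymphomas are therefore not the original ones, and differences within a lymphoma are unaffected. Of 18 value columns 17 were used; the ADR outgrowth of 5043 held no values and failed quality control per the labels.

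Platform annotation gave 34958 probe sets 1 symbol, 932 several and 9211 none, and the last 2 kinds were left out. Genes with a value of at least 4.86 on 3 arrays were tested, 11897 of 18194. The model, fitted with limma 3.58.1 in R 4.3.3 to all 17 arrays, had a term for each of 6 groups and a block for lymphoma, because arrays of a lymphoma come from 1 animal; it had 9 residual and 2.53 prior degrees of freedom, and the median SE was 0.223. Calls were made at 0.05 after Benjamini-Hochberg adjustment over all genes tested. Pairing could not be checked on the values, since removing medians forces arrays of a lymphoma apart (correlations of group-centred values of -0.132, -0.136 and -0.188). The method was tested on simulated data. Lists were described by counts and medians, without a set test. Members and lists were chosen with earlier results of these data known.

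Genes were named by rule: the 12 largest rises and falls that passed with 1 sign in all lymphomas, up to 4 passing members of a list or else the 2 with the lowest p, the 6 genes in each direction that set the 5043 pair furthest apart, Bcl2, Myc, Cdkn1a and Cdkn2a, and Xist, Afp and cell type markers as checks. The rule also held Suv39h1 and Trp53, whose values are not reported here. Other called genes were named after their values were seen. Alternatives were a fit without the block, no filter or a stricter one (5.63, the 60th percentile), averaging a gene's probe sets or testing each of them, quantile normalisation or median centring of the arrays, array weights, a robust fit with a variance trend, the 6 arrays alone, leaving out each lymphoma or each untreated or big outgrowth array, and leaving out the 3 arrays that stood apart. Leaving out ADR 5 d 4936 with small outgrowth 5043, ADR with 4-OHT 5 d of 4146, or small outgrowth 5043 was added after seeing the data. Gene positions are those of GRCm38.p6.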

Additional observations from a re-analysis of the deposited data

How the results depend on the processing

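Big outgrowth minus untreated called 49 genes, 34 higher and 15 lower. The counts stayed within 1.5 times of these with no filter, the 60th percentile filter, quantile normalisation, median centring and the variance trend, and with the mean over probe sets except for the falling genes, of which 24 were called. They moved without the replicate block (112, 63 higher and 49 lower), with every probe set alone (182, 81 and 101), with array weights (1421, 505 and 916), without the 3 arrays that stood apart (80, 77 and 3) and, in the setting added later, without ADR 5 d 4936 and small outgrowth 5043 (89, 72 and 17). A fit of the 6 arrays alone, with 2 residual degrees of freedom, called 0. Leaving out 1 lymphoma, or 1 array that was untreated, big outgrowth or named next, gave 0 to 108 genes, 0 to 66 higher and 0 to 42 lower, and among these 28 (19 and 9) without ADR with 4-OHT 5 d of 4146 and 20 (17 and 3) without small outgrowth 5043.

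Against small outgrowth, 0 genes became 30 without the block, 68 with every probe set, 261 with array weights and 3 without the 3 arrays, with 0 to 26 when 1 of these was left out. Against ADR with 4-OHT 5 d, 478 became 920, 751, 2456 and 72 in the same settings, with 0 to 746. Against ADR outgrowth, 112 became 531, 581, 0 and 74, with 0 to 198, and 289 with the mean over probe sets, 61 with quantile normalisation, 259 with median centring and 0 in the setting added later. The cause of these shifts was not tested.

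The 12 largest passing rises and 12 largest passing falls passed in 313 of 552 combinations of gene and setting and missed the threshold in 239. Their direction did not turn, but they had been chosen for 1 sign in all lymphomas, so that is no sign of stability. Of 638 list medians under alternatives 603 moved by less than the spread between lymphomas, and the stromal median ran from 1.22 to 3.73. With 3 arrays per group, few genes with small changes can pass.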

Other observations

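MHC class II genes, which B cells and other antigen-presenting cells use to show peptides to T cells, differed between the arrays. The median difference of big outgrowth minus untreated over 9 genes was -0.03 in 4146, -0.03 in 4936 and 2.20 in 5043, with 0 called by limma and 0 at an unadjusted p under 0.05. H2-Aa was at 6.60, 7.36 and 10.18 in big outgrowth of 4146, 4936 and 5043 and at 6.58, 6.28 and 5.76 in untreated cells, and it was at 10.08 in small outgrowth of 5043 and at 9.42 in ADR 5 d of 4936, the other 2 arrays that stood apart. p53 targets differed between the pairs as well, with a median over 32 genes of 0.84 in 4146, 0.27 in 4936 and -0.75 in 5043. Gadd45a, a stress-induced gene of that list, was higher in each lymphoma, by 2.26, 2.15 and 3.45 (2.62, SE 0.65, adjusted p = 0.104).

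Eno2, a neuronal and hypoxia-responsive enolase, was just outside the threshold at 3.33, 4.33 and 3.65 in untreated 4146, 4936 and 5043 and 6.60, 8.30 and 5.04 in big outgrowth (2.88, SE 0.55, at least 1.79, adjusted p = 0.0518). It passed without big outgrowth 5043 (3.59, adjusted p = 0.0102).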
